A study of Sus scrofa with 18 samples.

Results

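The endometrium of Yorkshire gilts was compared with that of Meishan gilts on gestational day 26 (GD26), using 3 arrays of each breed out of the 18 arrays of the series. Both groups were pregnant gilts of similar age and weight from 1 farm, each mated to boars of its own breed, and no other treatment was given. The Meishan is a prolific Chinese breed and the Yorkshire a less prolific Western breed. The other 12 arrays hold the same breeds on GD15 and GD50. Every array measured a pool of RNA from 1 attachment site of each of the same 2 gilts, so that the p-values given here measure the spread between site pools of the same animals, and the breed and the individual gilts cannot be told apart. Of 23999 probe sets that are not controls, 8683 were brighter than 100 on 3 or more of the 6 GD26 arrays and were compared. They include 5000 probe sets with 1 gene symbol, for 4118 genes.

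In the pig, the placenta does not invade the uterus: the trophoblast attaches to an intact uterine epithelium, and the uterine glands nourish the conceptus by secretion. On GD26 attachment is being completed, and both sides form the folds through which nutrients pass. A piece of endometrium from an attachment site can therefore carry trophoblast with it. Insulin-like growth factors, leukemia inhibitory factor and bone morphogenetic proteins are among the signals exchanged at this time, and the trophoblast makes steroids of its own.

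The arrays carried the markers of endometrium in both breeds. DCN, LUM and VIM of the stroma and CDH1, EPCAM, KRT8, KRT18 and CLDN4 of the epithelium were above an intensity of 100 on all 6 arrays, while the probe set of COL3A1, another stromal gene, was under it on all 6. Of the trophoblast markers, 3 were as bright: PLET1 ranged from 14.37 to 15.00 on the log2 scale, PAG6 from 13.06 to 14.24 and DPPA5 from 13.69 to 14.78, with the breeds overlapping for all 3. GATA3, the other one with a probe set, was dimmer and did not overlap, at 8.63 to 9.53 in Meishan and 10.49 to 10.65 in Yorkshire. The summed linear intensity of the 4 trophoblast markers with a probe set was 43332 to 72272 in Meishan and 65696 to 81313 in Yorkshire, and the sum of the 4 such stromal markers was 34115 to 39033 against 27378 to 29721. These sums are as deposited, and the Yorkshire arrays were dimmer over the compared probe sets, as given below. DCN, LUM and VIM were not called different between the breeds by the criterion given below. In pooled tissue, fewer cells of a type and less RNA per cell cannot be told apart. None of the 3 lymphocyte markers with a probe set passed the filter.

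The Yorkshire arrays were dimmer. The median log2 intensity of the compared probe sets was 8.46, 8.50 and 8.48 on the Meishan arrays and 8.33, 8.12 and 8.04 on the Yorkshire arrays. The bacterial and phage transcripts added as hybridization controls went the other way, with means of 10.66 to 11.07 in Meishan and 11.71 to 13.13 in Yorkshire. Differences are therefore given as deposited and after each array was centred on its median, and a gene is described as higher or lower only where both scales called it. A call needs a limma p of 0.05 or less, adjusted by Benjamini-Hochberg across the 8683 probe sets, and a 2-fold difference or more, which is 1 on the log2 scale. Between the breeds, 2 arrays correlated at 0.796 to 0.867 over the probe sets, against 0.945 to 0.981 within a breed.

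As deposited, 596 probe sets (6.86% of those tested) were higher and 1583 (18.2%) were lower in Yorkshire. After centring, 866 (9.97%) were higher and 840 (9.67%) were lower, so that the share of lower calls went from 72.6% to 49.2%. It was 44.6% after quantile normalization and 33.1% after cyclic loess. The calls made on both scales were the 596 higher and the 840 lower ones. For 229 of the 596, all Meishan arrays lay under 100, and for 386 of the 840 all Yorkshire arrays did. Such probe sets passed the filter through 1 breed only and had to differ, so their calls support nothing, and their folds are given as lower bounds with 100 in place of the dimmer breed. With every intensity under 100 set to 100, 485 higher and 466 lower calls were made on both scales. The calls of ALAS2, FDXR, IGF1R, SLC7A9, PTGS1, BIRC5, DLGAP5, CDC45, ERG, CLDN10, COL6A2, FCER1G, CCL19 and BMPR1B were then lost on both scales. The values of the brightest probe set of a gene stand for the gene, and on that basis 222 genes (5.39%) were higher and 341 (8.28%) lower on both scales. The counts of gene lists below are to be read beside these shares. As deposited alone, 16.8% of genes were called lower, and after centring alone 8.01% were called higher. All arrays of 1 breed lay above all of the other, as deposited, for 13.8% of probe sets (12.6% of genes) in the Yorkshire direction and for 45.3% (48.8% of genes) in the Meishan direction, so that arrays without overlap are common on this scale.

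The 12 genes with the largest Yorkshire excess were led by IGF2, the fetal growth factor of the insulin family. Its log2 intensities were 6.10, 5.08 and 4.85 in Meishan and 13.06, 12.30 and 13.15 in Yorkshire. Every Yorkshire array was thus far above every Meishan array, by at least 73.3-fold. The other 5 probe sets of IGF2 were also called higher, and the 1 of them not under 100 on all Meishan arrays measured 8.40, 8.07 and 6.25 against 9.79, 10.12 and 11.25 (2.81 ± 0.62, SE, n = 3 arrays a breed; limma adjusted p = 0.0112). Other members of its system were called too. IGFBP5, a binding protein that holds these factors in the matrix, measured 5.44, 5.92 and 5.76 in Meishan and 9.09, 10.74 and 11.34 in Yorkshire, at least 13.4-fold more. The receptor IGF1R was under 100 on all Meishan arrays (3.66 to 3.97) and just above it in Yorkshire (6.68 to 6.85), a bound of 1.11-fold. STC1, a secreted glycoprotein hormone counted with this list, went the other way, with 9.39, 9.18 and 9.11 in Meishan against 7.22, 6.15 and 7.41 in Yorkshire, a difference of -2.29. Of the 6 genes of this list past the filter, 3 were called higher and 1 lower, against 5.39% and 8.28% of all genes. The brightest probe sets of the 3 higher ones were under 100 on all Meishan arrays and had to differ, so this count supports nothing. The call of IGF1R was lost with intensities under 100 set to 100. IGFBP2 and IGFBP6 were not called, at 0.56 and -0.81. The median of the list was 1.75 as deposited, and 0.36 with intensities under 100 set to 100.

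SOD3, the extracellular superoxide dismutase, had the next largest excess. It measured 6.69, 7.97 and 7.25 in Meishan and 12.38, 13.32 and 13.42 in Yorkshire, 53.3-fold apart. PGLYRP1 and BPI, antibacterial proteins known from neutrophils, came next. PGLYRP1 was at 6.22, 5.13 and 2.32 in Meishan and at 11.19, 11.30 and 11.21 in Yorkshire. BPI was at 10.20, 9.05 and 5.66 in Meishan and at 13.10, 12.21 and 12.68 in Yorkshire, and both of its probe sets were called. The breeds did not overlap for either gene, but the Meishan arrays differed among themselves by over 3 log2 units, and Meishan array 3 was the lowest for both. PGLYRP1 was at least 24.1-fold higher. Without that array the difference of BPI as deposited was 3.04, against 4.36 with it.

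The remaining genes of this set spread less within a breed. CD74, the invariant chain of class II MHC, was 11.5-fold higher, from 7.18, 7.88 and 7.73 to 10.81, 11.37 and 11.16. SPINT1, an inhibitor of epithelial serine proteases, was at least 10.5-fold higher, and COL1A2, a chain of type I collagen, at least 9.26-fold. SPTAN1 (a spectrin of the membrane skeleton), HM13 (signal peptide peptidase), PLTP (phospholipid transfer protein) and ALDH1A1 (retinaldehyde dehydrogenase, which makes retinoic acid) were 9.10-fold, 8.48-fold, 8.02-fold and 7.74-fold higher. ALDH1A1 measured 9.58, 10.34 and 10.57 in Meishan and 12.92, 13.22 and 13.22 in Yorkshire, without overlap.

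**Figure D1:**
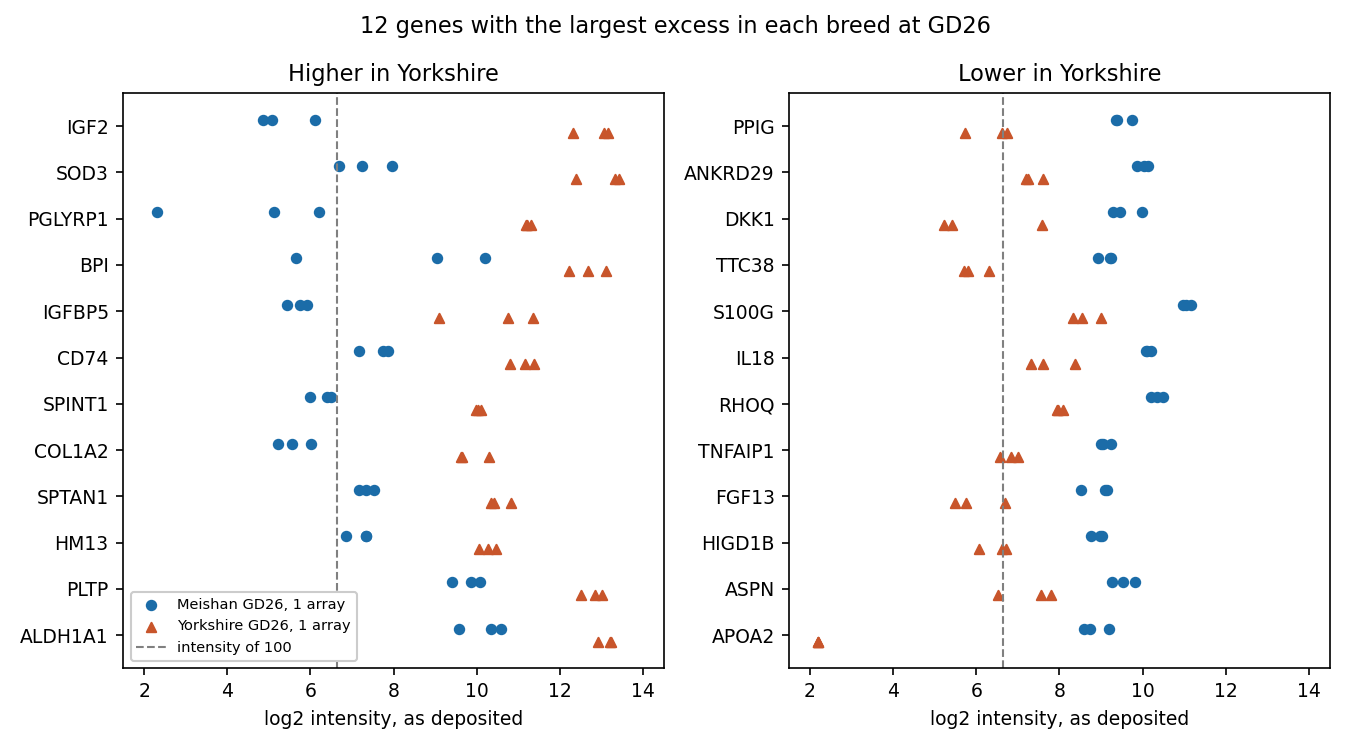
The log2 intensities as deposited (x axis) of the 12 genes with the largest excess of each breed at GD26, 1 point per array, with Meishan as circles, Yorkshire as triangles and the intensity of 100 as a dashed line. The breeds do not overlap for any of the 24 genes, and the Meishan arrays spread most for PGLYRP1 and BPI.

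Among the 12 genes with the largest Meishan excess, DKK1, a secreted inhibitor of Wnt signalling, measured 9.45, 9.28 and 9.97 in Meishan and 7.58, 5.42 and 5.23 in Yorkshire (-2.62 with the 2 Yorkshire arrays under 100 set to 100). S100G, the calcium-binding protein calbindin-D9k of the uterine epithelium, measured 11.05, 10.97 and 11.16 against 8.33, 8.99 and 8.53, a 5.43-fold difference. IL18, a cytokine of the interleukin-1 family, was at 10.10, 10.19 and 10.07 against 8.36, 7.61 and 7.30. The Meishan arrays lay within 0.2 log2 units of one another for the last 2 genes, and all Yorkshire arrays were lower. APOA2, an apolipoprotein of the liver and yolk sac, was at 8.59, 8.74 and 9.18 in Meishan and at 2.18, the lowest value on these arrays, on all 3 Yorkshire arrays. That is at least 4.57-fold. ASPN, a small matrix proteoglycan, and RHOQ, a small GTPase, were 4.74-fold and 5.10-fold lower in Yorkshire, and ANKRD29 and TNFAIP1 had differences of -2.65 and -2.29. FGF13, an intracellular member of the fibroblast growth factor family, PPIG, a cyclophilin of the splicing machinery, and HIGD1B had some Yorkshire arrays under 100, and with these set to 100 their differences were -2.26, -2.82 and -2.25. TTC38 was at least 5.59-fold lower.

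The GD26 calls were set beside the same comparison on the other days, which used other arrays. Of the 596 higher probe sets, 406 (68.1%) were also called higher at GD50 on both scales, where 598 (6.89%) were called in all, so the shared ones are 67.9% of the GD50 calls. At GD15, 52 (8.72%) were called higher, of 189 (2.18%) called in all. Of the 840 lower probe sets, 422 (50.2%) were also lower at GD50, of 902 (10.4%), and 66 (7.86%) at GD15, of 236 (2.72%). Over genes, the calls at GD15 were 1.89% higher and 2.57% lower, and those at GD50 were 5.0% and 7.63%. The shares with GD50 and with GD15 were each above the background of that day in both directions. The difference of differences was tested over all 18 centred arrays. The Yorkshire minus Meishan value was larger at GD26 than at GD15 for 959 probe sets (11%) and smaller for 804 (9.26%), and against GD50 it was larger for 179 (2.06%) and smaller for 230 (2.65%). The test against both days was passed by 0.864% of probe sets (0.777% of genes) for larger values and by 1.15% (1.17% of genes) for smaller ones, and over genes the values were 9.13% and 8.64% against GD15 and 2.09% and 2.53% against GD50. Without Meishan GD26 array 3, the GD50 counts were 106 and 137. Without Meishan GD50 array 1 or 2, the larger ones were 114 or 106.

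TFRC, the transferrin receptor through which cells take up iron, showed the pattern shared with GD50. It was at 2.53, 2.32 and 2.32 in Meishan and at 9.93, 8.64 and 9.69 in Yorkshire, at least 6.84-fold apart. With centred intensities under 100 set to 100, as in all values by day from here on unless stated, its difference was 2.97 at GD26, 3.82 at GD50 and 0 at GD15, where every array was under 100. Only 1 probe set measured it. LIF, the cytokine that many mammals need for implantation, measured 5.52, 6.03 and 5.46 against 8.56, 8.68 and 8.14, and its difference was 2.01 at GD26, 2.26 at GD50 and 0 at GD15. IGFBP5, CD74 and SPINT1 had differences of 3.94, 3.84 and 3.58 at GD26 and of 4.17, 4.66 and 3.93 at GD50. The difference between these days did not pass the test for any of the 5, which does not show that it was equal. COL1A2 had 3.40 at GD26 and 2.04 at GD50, and that difference passed the test only with this floor (adjusted p = 0.0130).

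The naming rule chose 99 genes, not all of them described in the text, of which 91 were called on both scales. Of these, 24 had a breed difference at GD26 that differed from both other days, and 19 of the 24 kept this with the floor, 7 higher and 12 lower in Yorkshire. The genes were chosen by their GD26 values, which also enter this test, so passing it was favoured in advance. Over all genes, 0.777% passed it without the floor for larger values and 1.17% for smaller ones. BPI had a difference of 4.31 at GD26 and of 0 and -0.57 at GD15 and GD50. PLAC1, a placental membrane protein, measured 7.26, 6.18 and 3.72 in Meishan and 9.76, 8.53 and 9.68 in Yorkshire, and its difference was 2.70 at GD26 against 0 and -0.47. HSD3B1, the enzyme that converts pregnenolone to progesterone, measured 9.68, 9.13 and 8.14 against 10.98, 10.89 and 10.66, with 2.18 at GD26 against 0 and -0.49. These 3 genes were called at GD26 and at neither of the other days. IGF2 had 6.39 at GD26, 4.60 at GD50 and 0 at GD15, and DNAJB1, a heat shock co-chaperone, had 2.43, 1.20 and 0.59. ALAS2, the red-cell enzyme of heme synthesis, had 1.13, -0.03 and 0. Its Meishan GD26 arrays, at 4.83 to 5.86, all lay under the floor, so that ALAS2 had to differ. Its GD26 call was lost on both scales with the floor, so that call supports nothing.

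Lower in Yorkshire at GD26 and not called at the other days was APOA2, with a difference of -2.06 at GD26 and of 0 on both other days, when all arrays were under 100. IL18, with -2.04 at GD26, was at 0.10 at GD15 and 0.18 at GD50, and S100G, with -2.12, at -0.69 and -0.66. STC1 had -1.89 at GD26 against 1.01 and 0.12. FCGR2B (an inhibitory Fc receptor), CXCR4 (a chemokine receptor) and ID1 (an inhibitor of differentiation factors) had -1.18, -1.37 and -1.40 at GD26, with -0.17 to 0.57 on the other days. The test against both days was passed by DKK1, SLC7A9, CDC45, ANGPT2 and CLDN10 only without the floor. SLC7A9, a transporter of basic amino acids and cystine, measured 7.12, 6.79 and 7.30 in Meishan and 2.94, 2.26 and 2.94 in Yorkshire, which is at least 1.34-fold, and its difference with the floor was -0.30.

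**Figure D2:**
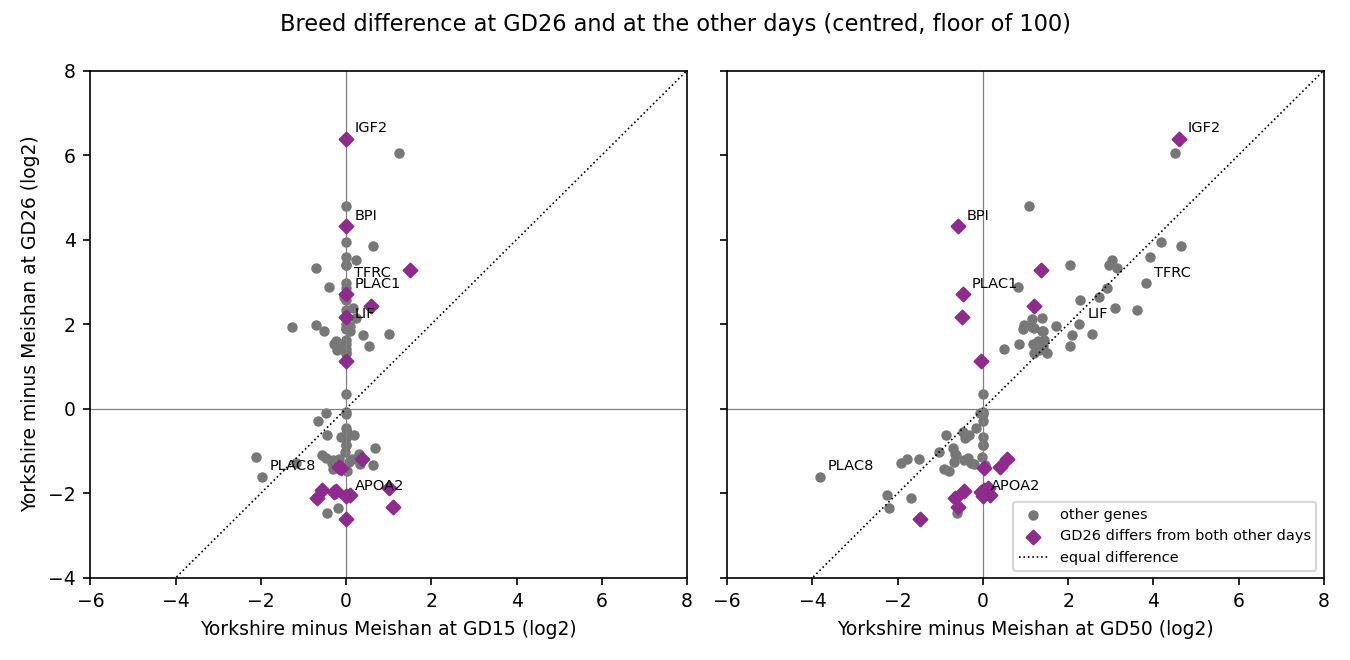
The Yorkshire minus Meishan difference (log2, centred, with intensities under 100 set to 100) of 91 genes called at GD26 (y axis) against that at GD15 (left) and at GD50 (right), 1 point per gene, with a dotted line where both days would be equal. The 19 diamonds differ from both other days with and without the floor: BPI and PLAC1 are near 0 on both x axes, while TFRC lies near the dotted line at GD50 and at 0 at GD15.

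Genes of the trophoblast were described as a list. Of 15 members past the filter, 4 were higher (PLAC1, GATA3, TEAD4 and HAND1) and 1 (PLAC8) lower, against 5.39% and 8.28% of all genes. HAND1 was under 100 on all Meishan arrays and had to differ. The median difference was 0.32 as deposited and 0.64 centred, against -0.39 and -0.07 over all genes. GATA3, a transcription factor of the trophoblast and of T lymphocytes, measured 9.53, 8.76 and 8.63 in Meishan and 10.49, 10.65 and 10.53 in Yorkshire. TEAD4, which specifies the trophoblast lineage, had a difference of 1.56. HAND1, needed for placental and heart development, was at 3.33, 5.50 and 2.92 against 7.81, 7.90 and 6.94, at least 1.87-fold, and was named after its values were seen, as were HBE1 and POSTN below. PLAC8 was lower in Yorkshire on every day, and was called on all 3 days. The pregnancy-associated glycoprotein PAG6, PLET1 and DPPA5 were not called.

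Within the Meishan arrays, 14 of the 15 trophoblast genes and 8 of 8 genes of steroid synthesis were lowest on array 3, against 34.0% of all compared probe sets. So were 12 of 14 genes of cholesterol synthesis, 12 of 15 solute carriers, 12 of 17 lysosomal proteases and 8 of 10 steroid-converting enzymes, while 1 of 25 interferon genes and 0 of 13 smooth muscle genes were. HBE1, the embryonic epsilon globin, measured 12.64, 10.96 and 6.64 on the Meishan arrays and 13.81, 14.06 and 13.94 on the Yorkshire arrays, and was called only after centring (adjusted p = 0.0393, against 0.0527 as deposited). POSTN, a matrix protein, was at 8.47, 7.02 and 3.79 against 8.77, 7.13 and 7.90 and was not called at GD26. Without Meishan array 3, GATA3, PLAC1, HSD3B1 and APOE were still called on both scales, by 1.41, 2.60, 1.44 and 1.17 as deposited. The part of the amount of conceptus tissue in these differences was not tested. AFP, a plasma protein of the yolk sac and fetal liver, was at 11.42 on Meishan array 1 and at 2.34 on the other 5 arrays, and TTR was at 8.41 there and at 2.33 or less elsewhere. Neither passed the filter. Of the 7 plasma protein genes of this kind past it, APOE and CFB were higher, by 1.65 and 1.01, and APOA2 was lower.

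**Figure D3:**
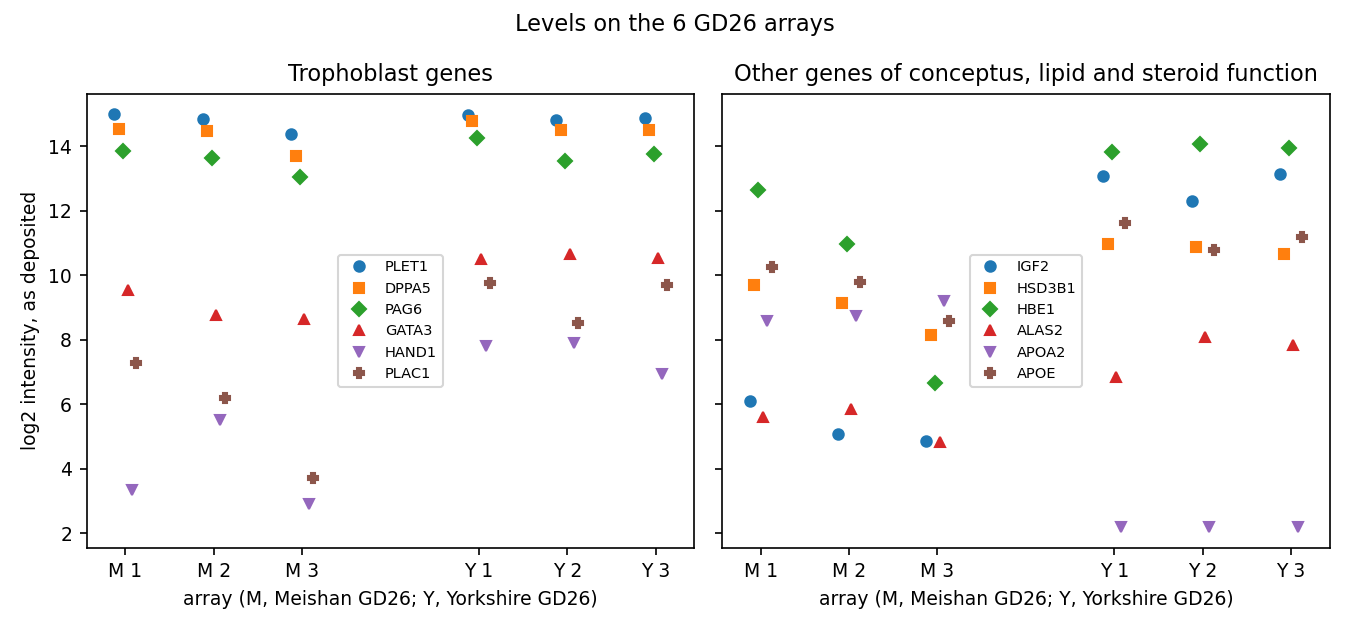
The log2 intensities as deposited (y axis) of 6 trophoblast genes (left) and 6 genes of conceptus, lipid and steroid function (right) on the 6 GD26 arrays (x axis), 1 marker per array. PLET1, DPPA5 and PAG6 overlap between the breeds, HBE1 and PLAC1 are lowest on Meishan array 3, and APOA2 is at 2.18 on all Yorkshire arrays.

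Of 17 genes tied to implantation, 8 were higher and 1 was lower on both scales, against 5.39% and 8.28% of all genes. The median was 0.94 as deposited, 0.76 with intensities under 100 set to 100, and 1.26 centred. For 5 of the 17, LIF, SPINT1 and BMP4 among them, all arrays of 1 breed lay under 100. These genes had to differ, so their calls support nothing. The list holds genes that the study picked from these same arrays, so its direction is no independent evidence. Besides LIF and SPINT1, BSG (basigin, a glycoprotein that induces metalloproteinases) was 3.09-fold higher, from 9.72, 9.56 and 9.52 to 11.05, 11.37 and 11.27. BMP4, a bone morphogenetic protein of the stroma, was the lower member: 7.73, 8.41 and 8.44 in Meishan against 4.80, 5.19 and 5.19 in Yorkshire, at least 2.93-fold. It was lower at GD50 too, by a difference of -0.90 against -1.42 at GD26 with the floor of 100. The TGF-beta and BMP list had a centred median of -0.51. Of its 13 genes, 3 were lower and none higher, against 8.28% and 5.39% of all genes. With BMP4 these were its receptor BMPR1B, at least 1.60-fold lower, and its target ID1, at -1.72, from 10.63, 10.60 and 11.06 to 9.60, 8.21 and 9.31. BMP4 and BMPR1B were under 100 on all Yorkshire arrays and had to differ.

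Other genes that the study discussed had array values as follows. HMOX1, the enzyme that breaks down heme, and MSX1, a homeobox factor of the receptive epithelium, were called higher only after centring, by 1.23 and 1.26 (0.91 and 0.94 as deposited). MMP7, a metalloproteinase of the epithelium, was called lower only as deposited, at -1.24, against -0.92 after centring. THBS1 (an adhesive matrix glycoprotein) and HSD17B2 (which inactivates estradiol) were not called, at -0.61 and 0.23. SULT1E1, the estrogen sulfotransferase, was not called at GD26 either (0.37). Without the floor, its centred difference was -2.68 at GD15 and 0.69 at GD26, and these differed by the limma test between days (adjusted p = 0.000366). With the floor, its GD15 difference was -0.0017, and the change of 0.70 between these days was not called. The value of -2.68 is therefore not a measured size. PRLR, ITGB3, S100A9, MCM4, CYP26A1 and ESR1 were under the filter.

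Immune genes moved in both directions. In the MHC list, 4 of 19 were lower and only CD74 was higher, against 8.28% and 5.39% of all genes. The centred median of the list was -0.16. SLA-DQB1 and SLA-DMB of class II measured 10.97, 11.32 and 11.43 against 9.48, 9.87 and 9.50, and 8.84, 9.40 and 9.59 against 7.40, 8.28 and 7.16. SLA-6 and SLA-8 of class I had differences of -1.58 and -1.37. CD74, the partner chain of class II, thus had the opposite sign to the class II genes called, and SLA-DRA and SLA-DQA1 were not called, at -0.89 and -0.78. The interleukin and chemokine list had a centred median of -0.45. Of its 12 genes, 4 were lower and none higher, against 8.28% and 5.39% of all genes. These were IL18, the chemokines CCL2, at -1.80, and CCL19, at least 1.75-fold lower, and the receptor CXCR4, at -1.69, from 8.57, 8.83 and 8.73 to 7.53, 6.90 and 6.63. CCL19 was under 100 on all Yorkshire arrays and had to differ. Of 11 macrophage and neutrophil genes, 2 were higher (PGLYRP1 and C1QA, a subunit of complement C1q) and 2 lower (FCGR2B and FCER1G, parts of Fc receptors). Of all genes, 5.39% were higher and 8.28% lower. PGLYRP1 and FCER1G were under 100 on all arrays of 1 breed and had to differ. The centred median of this list was -0.51. CD163, a macrophage marker, was called lower only as deposited, at -1.03, against -0.71 after centring. In the interferon list, USP18 alone of 25 was called, at -1.60, and the median of -0.08 after centring was that of all genes within 0.01.

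Of 24 genes of cell division, 3 were lower on both scales and none was higher, against 8.28% lower among all genes. With intensities under 100 set to 100, all 3 calls were lost on both scales. DLGAP5 and CDC45 were under 100 on all Yorkshire arrays and had to differ. As deposited alone 9 were called lower, against 16.8% of all genes. The list holds genes that the study drew from these arrays. BIRC5 (survivin) had a difference of -1.40, or -0.99 with intensities under 100 set to 100, DLGAP5 (a spindle protein) was at least 1.97-fold lower and CDC45 (a subunit of the replicative helicase) at least 1.15-fold. PCNA, the sliding clamp of replication, was called lower as deposited only, at -1.17 (-0.85 after centring). The median of the list was -0.74 as deposited, -0.58 with the floor and -0.42 centred. BIRC5 was at 7.67, 7.70 and 7.83 in Meishan and at 6.94, 6.38 and 5.68 in Yorkshire, and its call after centring was lost when either of 2 arrays was left out.

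**Figure D4:**
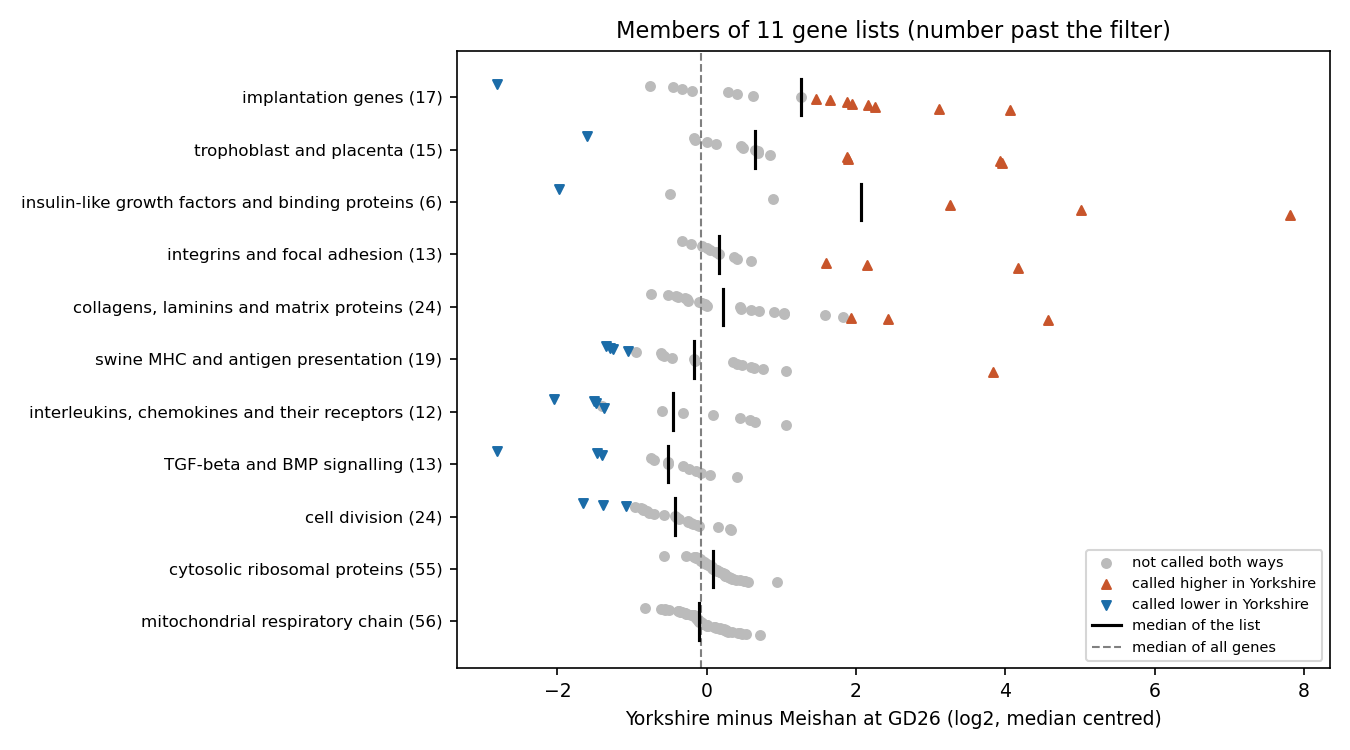
The centred Yorkshire minus Meishan difference (log2, x axis) of every member past the filter of 11 gene lists, 1 point per gene, with triangles for genes called on both scales, a black bar for the median of the list and a dashed line for the median of all genes. The implantation list has 8 triangles to the right, and the ribosomal and respiratory chain lists have none.

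Matrix and adhesion genes that were called were all higher. They were COL1A2, COL5A1 and COL6A2 of 24 matrix genes, and the integrin ITGA5, talin TLN1 and filamin FLNA of 13 adhesion genes. Of all genes, 5.39% were higher and 8.28% lower. COL1A2, COL6A2 and ITGA5 were under 100 on all Meishan arrays and had to differ, so their calls and direction support nothing. COL5A1 measured 9.13, 9.02 and 8.67 against 10.48, 10.44 and 10.72, and TLN1 8.24, 7.96 and 7.85 against 9.71, 10.03 and 9.79. ITGA5, the fibronectin receptor chain, was at least 3.21-fold higher. The list medians were 0.23 and 0.16 after centring, and DCN and LUM were not called. JUP, the plakoglobin of junctions, was at least 5.21-fold higher, while CLDN10 was at least 2.10-fold lower, and the other 18 epithelial genes, the keratins and CDH1 among them, were not called. Endothelial genes were split, with ENG (endoglin) and EPAS1 (a hypoxia-inducible factor) higher, by 2.70 and 1.17, and ANGPT2 (angiopoietin 2), CLDN5 (a claudin of vessels) and ERG (an endothelial transcription factor) lower. ANGPT2 was at -1.69, and CLDN5 and ERG were at least 1.16-fold and 1.69-fold lower. CLDN5, named after its values were seen, was higher at GD50, by 1.45 against -0.09 at GD26 with the floor, and that change between days passed the test (adjusted p = 0.000351).

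Transport and metabolism gave single genes rather than groups. Among 15 solute carriers, SLC7A9, SLC1A1 (a glutamate transporter) and SLC7A1 (a transporter of arginine) were lower, the last 2 at -1.46 and -1.35, and SLC2A5, the fructose transporter, was higher, by 1.20. Of 11 genes of iron handling TFRC alone was called, and ferritin FTH1 and FTL were not, at -0.03 and -0.15. Of 27 glutathione and antioxidant genes, SOD3 and GSTA1 (a glutathione transferase, 5.92-fold) were higher. Of 9 prostaglandin genes CBR1, a carbonyl reductase, was higher, by 1.80, and PTGS1, a cyclooxygenase, was at least 1.77-fold lower. That call of PTGS1 was lost on both scales with the floor. PTGS1 was called lower at GD15 too, but its GD15 difference with the floor was 0, so these calls support nothing. None of 10 steroid-converting enzymes was called. Of 8 genes of steroid synthesis, FDXR, the reductase that feeds the side-chain cleavage enzyme, was at least 1.49-fold lower, beside the higher HSD3B1. None of 55 ribosomal and 56 respiratory chain genes was called on both scales, with centred medians of 0.09 and -0.10.

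Other lists held few calls. TIMP3, an inhibitor of metalloproteinases held in the matrix, was the only one of 10 metalloproteinases and inhibitors called, from 7.26, 6.47 and 7.62 in Meishan to 9.27, 9.11 and 9.33 in Yorkshire. Of 13 smooth muscle genes, MYL9 (a myosin light chain) and CSRP1 (a cytoskeletal LIM protein) were higher, the first by 2.33 and the second by at least 3.11-fold. The list median was -0.24 as deposited and 0.08 centred. Without overlap, 4 members were higher and 6 lower as deposited, against 12.6% and 48.8% of all genes. ACTA2, the smooth muscle actin, was not called, at 13.66 to 13.83 in Meishan and 13.04 to 13.27 in Yorkshire. The steroid receptor co-chaperones FKBP4 and FKBP5 had opposite signs, at 1.08 and -1.39, and FKBP5 lost its call after centring when any of 4 arrays was left out. Of 20 immediate early and stretch genes, JUN and BTG2 were higher, by 1.45 and 1.42, and GADD45A and GADD45B were lower, at -1.53 and -2.06, the last losing its call without any of 5 arrays after centring and any of 2 as deposited. Of 17 secretory protein genes 1 was higher and 2 were lower, of 17 lysosomal proteases CTSK alone was called, at -1.41 (after centring -0.996 without Meishan array 3 and -0.95 without Yorkshire array 1, under the 2-fold limit), and of 58 proteasome and chaperone genes 2 were higher and 1 was lower.

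Probe sets of the same gene often disagreed. Of 707 genes with several compared probe sets, 157 had at least 1 called higher, and for 116 of these the brightest probe set was not called. The same held for 66 of 94 genes with a probe set called lower. All probe sets were higher for 24 genes, IGF2 among them, and all were lower for 10. CDH1 (E-cadherin, which joins epithelial cells) is an example. Its brightest probe set was at 12.96, 12.99 and 12.97 in Meishan and at 13.04, 13.06 and 13.09 in Yorkshire (0.09 ± 0.14, SE, n = 3; limma adjusted p = 0.619), while its other probe set was at 4.82, 3.97 and 4.59 against 10.07, 9.68 and 10.06, at least 9.79-fold apart. For ACTB and GAPDH, used as references, the brightest probe sets differed by -0.38 and -0.36 and another one of each by 4.30 and 3.00.

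The array holds pairs of probe sets designed on 1 sequence cluster in opposite orientations, named S and A by the maker, because the strand of many pig transcripts was uncertain when it was designed. In 13 pairs the brighter member had a mean above 12 (log2), and this set was defined after the values had been seen. The brighter members were called in 0 of 13 pairs, with differences of -0.74 to 0.01. The dimmer members were called higher in Yorkshire in 13 of 13, with no overlap between the breeds, and their differences ran from 1.37 to 4.28 with a median of 3.04. Those of RPL13A, RPL6 and an unnamed pair were under 100 on all Meishan arrays. The pairs include 8 ribosomal proteins, TXN and TMSB10. For TXN, thioredoxin, the dimmer member was at 8.08, 8.20 and 8.24 in Meishan and at 10.42, 11.58 and 11.65 in Yorkshire, while the brighter one went from 14.22, 14.25 and 14.16 to 14.15, 13.83 and 13.86.

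The same dimmer members differed by a median of 3.79 at GD50 and 0.61 at GD15. On the Yorkshire GD26 arrays their medians were 9.11, 10.54 and 10.73, beside hybridization control means of 11.71, 13.05 and 13.13, so both measures were lowest on array 1. The dimmer members were thus raised in Yorkshire at both GD26 and GD50, and these days also shared more calls with each other than GD26 did with GD15. Of the genes chosen by the naming rule, APOE alone had its probe set in a pair, and that probe set was the brighter one. Which of the other genes were measured on the sense strand cannot be read from the files, and the part of this signal in their differences was not tested. Other controls moved as well. The control for the 5′ end of actin was at 10.86 to 11.23 in Meishan and 11.98 to 12.18 in Yorkshire with its 3′ control at 14.74 to 14.78 and 14.56 to 14.61, and the 5S ribosomal RNA control was at 2.72 to 3.86 against 6.27 to 8.69.

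**Figure D5:**
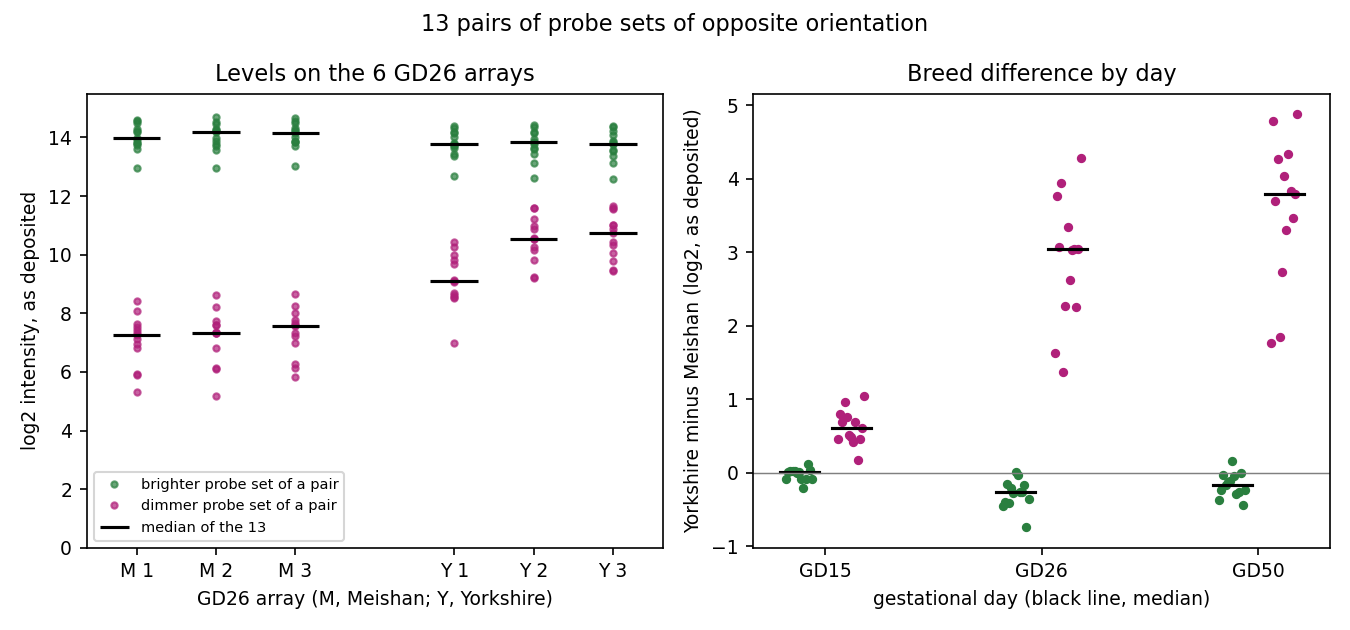
Left, log2 intensities as deposited of 13 pairs of probe sets of opposite orientation on the 6 GD26 arrays; right, the Yorkshire minus Meishan difference (log2) of each pair member by gestational day, with black bars for medians. The dimmer members are higher on every Yorkshire GD26 array, with a median difference of 3.04 at GD26 and 0.61 at GD15, while the brighter members differ by -0.74 to 0.01 at GD26.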

How the data were processed

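RNA of 18 endometrial pools was hybridized to Affymetrix porcine arrays. The log2 intensities per probe set were computed by the authors with Bioconductor's affy and GCRMA in R, and deposited in that form; the submitters' notes name RMA and GCRMA, without versions. The raw intensity files were not used here, so the background correction could not be varied. Arrays give no depth, and their number limits the precision.

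The 6 GD26 arrays were compared with limma 3.58.1 in R 4.3.3 (lmFit, eBayes), on 8683 of 23999 probe sets, with Benjamini-Hochberg adjustment over all of them, as deposited and after centring each array on its median. Breed differences between days were tested as interactions over the 18 centred arrays. The fits were tested on simulated data. Gene symbols came from the platform annotation: of the 8683 probe sets, 5000 have 1 symbol, 107 several and 3576 none.

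Named genes are the 12 with the largest excess of each breed among genes called on both scales (intensities under 100 set to 100 for ranking), up to 4 called members of each gene list, and the genes the study discussed. The comparison, the genes and the lists were chosen with earlier results of these data known. List counts are descriptions without a set test. Python 3.11.15 with matplotlib 3.10.9 made the plots. RT-PCR values were not analysed here.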

Additional observations from a re-analysis of the deposited data

Results flagged for a closer look

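The following results were singled out because the breed difference at GD26 differed from that on another day by an interaction test (limma, 18 centred arrays). Against GD15, 959 probe sets had a larger and 804 a smaller Yorkshire minus Meishan value at GD26, and against GD50 the numbers were 179 and 230.

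The named genes that differed from both days are given by the value at GD26 minus that at GD50, on the log2 scale and without the floor unless stated. They were chosen by their GD26 values, so passing the test was favoured in advance. Of those higher in Yorkshire, BPI had 5.25, PLAC1 4.39, IGF2 3.21 and ALAS2 2.83. HSD3B1 followed with 2.67, ALDH1A1 with 1.90 and DNAJB1 with 1.23. BPI, PLAC1, ALAS2 and HSD3B1 had no called breed difference at GD50, while IGF2 had one. The GD26 call of ALAS2 was lost on both scales with the floor, and all its Meishan GD26 arrays lay under the floor, so that call supports nothing.

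Of those lower in Yorkshire, APOA2 had -6.77 and SLC7A9 -4.51, but their Yorkshire arrays were far under 100 at GD26, so these sizes are not measured ones. With intensities under 100 set to 100, APOA2 had -2.06 and still passed the test, while SLC7A9, DKK1, CLDN10, CDC45 and ANGPT2 no longer passed it against both days, and IGF2, ALAS2 and PLAC1 had 1.78, 1.17 and 3.17. DKK1 had -2.57, CLDN10 -2.31 and IL18 -2.22. STC1 had -2.02, FCGR2B -2.01, ASPN -1.94 and TNFAIP1 -1.94. CXCR4 had -1.78, ANKRD29 -1.76, CDC45 -1.75 and HIGD1B -1.70. The smallest ones were S100G with -1.46, ID1 with -1.43, PPIG with -1.34 and ANGPT2 with -1.09.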

How the results depend on the processing

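Counts are given as higher/lower in Yorkshire. As deposited they were 596/1583, after centring 866/840, and on both scales 596/840. With probe sets above 100 in all 6 arrays they were 285/625, 473/249 and 285/249. With no filter the higher ones as deposited and on both scales were 907 and the lower ones after centring 1607. A filter at 200 left 970 lower as deposited and 538 after centring and on both scales, and a floor of 100 left 1019 and 466. Bonferroni adjustment left 114/32, 178/33 and 114/27. Without the fold criterion 3012 were lower as deposited, 1386 higher and 1617 lower after centring, and 1617 lower on both. Averaging all probe sets per gene gave 258/706, 372/370 and 258/370, and the brightest one 222/692, 330/341 and 222/341. With Yorkshire array 1 as the only Yorkshire array, assumed to vary like the Meishan arrays, 1047 were lower as deposited. In place of the deposited scale, centring gave 840 lower, quantile normalization 697 lower, and cyclic loess 970 higher and 480 lower. Fewer probe sets or genes were tested under the stricter filters and per gene; for the other settings the cause was not tested.

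Leaving out 1 array at a time, the counts as deposited ran from 556 to 615 higher and from 1202 to 2119 lower, those after centring from 774 to 940 and from 668 to 1070, and those on both scales from 556 to 615 and from 668 to 1070. The breed difference against GD15 ran from 867 to 1053 larger and from 680 to 1027 smaller, and against GD50 from 106 to 255 larger and from 137 to 275 smaller. As deposited, 1493 were smaller than at GD15. With the floor of 100, chosen for this test after seeing the data, 862 were larger and 565 smaller against GD15, and 201 and 204 against GD50. Bonferroni adjustment left 261 larger and 69 smaller against GD15, and 22 and 21 against GD50.

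Nothing states that the replicate numbers pair the samples, and the gilts of the breeds were different animals. Same-numbered arrays deviated together with correlations of 0.29, 0.13 and 0.03, and differently numbered ones with -0.23 to 0.15, which does not decide the question. With the replicate number as a block the counts were 607/1594 as deposited, 877/880 after centring and 607/880 on both scales, 955 and 789 against GD15, and 173 and 217 against GD50.

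No named gene changed sign under any alternative run on a scale where it was called. Sign changes of values that were not called were not counted. Some genes described as called lost the call on 1 of the scales when 1 array was left out. As deposited, APOE did without Meishan array 2 or Yorkshire array 3 (adjusted p = 0.0549 and 0.0567), SLC2A5 without Meishan array 2 or 3 (0.0544 and 0.0785) or Yorkshire array 1 (difference 0.92), and CFB without Meishan array 3 or Yorkshire array 1 or 2 (differences of 0.98, 0.88 and 0.89). After centring, SLA-DMB did without Meishan array 2 or 3 or Yorkshire array 3 (adjusted p = 0.0628, 0.0636 and 0.0586), BMPR1B without Meishan array 2 or 3 (0.0535 and 0.0525), and ID1 without Meishan array 3 (0.0581). BIRC5 did without Meishan array 3 (0.0525) or Yorkshire array 3 (difference -0.81), SLC7A1 without Meishan or Yorkshire array 2 (-0.99 and -0.93), and SLC1A1 without Yorkshire array 1 (-0.95). CTSK did without Meishan array 3 or Yorkshire array 1 (-0.996 and -0.95), FKBP5 without Meishan array 2 or 3 or Yorkshire array 1 or 3 (adjusted p of 0.0803 to 0.124), and GADD45B without Meishan array 1, 2 or 3 or Yorkshire array 1 or 3 (0.0558 to 0.0857), and as deposited without Meishan array 2 or 3 (0.0648 and 0.0613). FKBP4 did as deposited without Yorkshire array 2 (difference 0.97). Arrays give no depth, and levels under 100 carry little information on size.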
